A study of Homo sapiens with 9 samples.

Results

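The transcripts of 10 enzymes that make, lengthen and desaturate fatty acids were followed in WM3248, a human melanoma cell line, after treatment with ARN22089. The enzymes are ACLY, ACSS2, ME1, ACACA, FASN, ELOVL6, ELOVL5, SCD, FADS1 and FADS2, taken by name as the genes of this pathway. All 10 were assembled in all 9 libraries, among 14632 genes named in at least 1 library, and all 10 were among the 12244 genes tested. The dish cultures received ARN22089 at 0, 4 or 6 µM for 24 h, with 3 poly-A libraries at each dose, where the 0 µM libraries are labelled as untreated, with DMSO, the vehicle. ARN22089 is a small molecule made to keep CDC42-type GTPases from binding their effectors. All cultures grew in the same low-serum medium, which contains insulin. WM3248 is 1 line, and each replicate number carries 1 mark in the labels, the same at all 3 doses, whose meaning is not stated. It is therefore not known whether the replicates of a dose were grown apart or whether same-numbered libraries were handled together, and each p-value is read against a spread that may be technical only. RNA came from whole cultures, so fewer cells that use a gene and less of its RNA per cell cannot be told apart.

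Cytosolic acetyl-CoA is the carbon source of new fatty acids. ACLY makes it from citrate and ACSS2 from acetate, ACACA turns it into malonyl-CoA, and FASN joins these units into palmitate with NADPH, part of which ME1 supplies. ELOVL6 lengthens the saturated products, SCD puts in the double bond that gives oleate, and FADS2, ELOVL5 and FADS1 lengthen and desaturate polyunsaturated fatty acids taken up from outside. Many of these genes are known targets of the SREBP transcription factors, and melanoma cells are known to use both their own synthesis and uptake.

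Promoters of SREBP target genes often hold a CCAAT box beside the SREBP site, which is why the windows before the gene starts were read. The RefSeq promoter table (GRCh38.p14) held 14 windows for 9 of the 10 genes, with no entry for FASN. No window lay at the FADS2 start assembled here, which was at least 11809 bases after the annotated gene start. The 250 bases before each start in the table were searched on both strands. CCAAT lay in 7 of the 14 windows, against 32.0% of all 35116 windows, and the genes with it were SCD, ACLY, ELOVL5, ACACA and ACSS2. GGGCGG, the GC box, lay in 11 of the 14 windows, against 42.6% of all. CACGTG, an E-box, lay only in the window of ELOVL5, against 6.34% of all, and TCACNCCAC, a core form of the sterol regulatory element, lay in none of the 14, against 0.883% of all. Stretches are shown for SCD and ACLY, the genes with CCAAT that passed the test at 6 µM by the consensus exon value described below. ELOVL6 and ME1 passed by this value without CCAAT in their windows, and ELOVL5, ACACA and ACSS2 had it and did not pass. Capitals mark CCAAT or its reverse complement, ATTGG. The boxes start 229 and 186 bases before the annotated start in SCD (plus strand, chr10:100346989-100347054), and 65 and 23 bases before it in ACLY (minus strand, chr17:41919038-41919102).
SCD: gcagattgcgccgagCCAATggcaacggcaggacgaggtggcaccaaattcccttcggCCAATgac
ACLY: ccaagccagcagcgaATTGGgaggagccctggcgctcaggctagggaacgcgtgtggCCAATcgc
A match is a string of letters and not a measured site. The 5′ ends assembled here ran from 100346932 to 100347097 for SCD and from 41919016 to 41919054 for ACLY, so that transcripts in the files began in or beside these windows. At the furthest upstream of these ends, the SCD stretch and the ACLY box at 23 bases lay inside the assembled transcript and not before it.

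Each library was assembled separately, into 26506 to 30798 transcripts and 11999 to 12635 named genes, and levels are in FPKM (fragments of RNA sequenced from a transcript, divided by its length and by the library's mapped fragments). The depth in reads is unknown. The relative depth ran from 0.802 to 1.34 of the median library. Each gene is given by 2 values, of which the summed FPKM of its transcripts is the main one. The other, the consensus exon value, is the mean FPKM over the exonic bases assembled in at least 50% of the libraries with that gene. The sum counts every piece of a gene in full, while the consensus exon value weights each piece by the bases it covers. Differences are log2 differences of FPKM + 1 with their SE, and adjusted p-values are limma's, with Benjamini-Hochberg adjustment over all tested genes and a threshold of 0.05. All 8 melanocyte markers were assembled, with a summed level, led by S100B in 8 of the 9 libraries, of 406 to 1389 FPKM in the 0 µM libraries, 1246 to 2359 in the 4 µM libraries and 1385 to 2054 in the 6 µM libraries. Their median log2 difference from 0 µM was 0.93 at 4 µM and 1.14 at 6 µM, and none of the 8 passed the test. The 6 fibroblast markers summed to 16.8 to 62.8 FPKM in the 0 µM libraries, 29.9 to 52.0 in the 4 µM libraries and 30.5 to 54.9 in the 6 µM libraries. Of the marker lists of other cells, 2 of 5 keratinocyte, 1 of 5 leukocyte, 1 of 4 endothelial and 1 of 6 adipocyte genes were assembled, and PTPRC, CD3E, PECAM1, VWF, KRT5, TP63, ADIPOQ and PLIN1 were assembled in no library. The part that the melanocyte marker levels have in the results below was not tested.

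One library stood apart for these enzymes. Replicate 1 at 0 µM had the lowest summed level of all 9 libraries in 7 of the 10 genes, and the lowest consensus exon value in 9 of the 10. Over all tested genes it was the lowest library for 20.3% and 20.4%. PLIN2, a coat protein of lipid droplets, was at 233 FPKM in this library and at 31.8 to 46.1 FPKM in the other 8. The median log2 difference of the 10 enzymes at 6 µM against 0 µM was 1.09 with this library and 0.81 without it, and at 4 µM it was 0.68 with it and 0.48 without it.

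By the summed value, 9 of the 10 enzymes had a positive difference, with a median of 1.09, where the median of all genes was -0.03. Only ACLY passed the test, 1 of 10, where 38 of 12244 genes (0.31%) passed in either direction. By the consensus exon value, ELOVL6, ME1, SCD and ACLY passed, 4 of 10 and all higher, against 524 of 12249 genes (4.28%), and the median of the 10 was 0.87. At an unadjusted p below 0.05, 8 of the 10 were higher by each of the values, against 8.07% and 9.63% of all genes. All libraries at 6 µM lay above all those at 0 µM for 8 of the 10 by the summed value and for 9 of the 10 by the consensus exon value, where 10.9% and 12.1% of all genes did so. The calls depend on single libraries. Without replicate 2 at 0 µM, replicate 2 at 4 µM, or replicate 1 or 2 at 6 µM, no enzyme passed by either value. Without any of the other 5 libraries, 0 to 1 enzyme passed by the summed value and 1 to 3 by the consensus exon value. Without replicate 1 at 6 µM, 10 genes in all passed by the consensus exon value.

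At 4 µM all 10 enzymes had a positive difference from 0 µM by both values, but none passed the test. The medians were 0.68 by the summed value and 0.59 by the consensus exon value. The lowest adjusted p was 0.337 by the summed value, in SCD, and 0.159 by the consensus exon value, in ELOVL6. The test called 9 of 12244 genes (0.0735%) and 7 of 12249 (0.0571%) at this dose. At an unadjusted p below 0.05, 8 enzymes were higher by the summed value, against 6.22% of all genes, and 7 by the consensus exon value, against 7.43%. The libraries at 4 µM lay above all those at 0 µM for 8 and 7 enzymes by these values, against 9.95% and 10.6% of all genes. The comparisons of 4 and of 6 µM share the libraries at 0 µM, so the 2 sets of values are not independent.

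Between 6 and 4 µM the median difference was 0.17 by the summed value and 0.13 by the consensus exon value, and no enzyme passed the test, where 3 of 12244 genes (0.0245%) did by the summed value. With the replicate number as a block, 1 gene and no enzyme passed. At an unadjusted p below 0.05, 2 enzymes were higher by the summed value, against 1.69% of all genes, and 0 by the consensus exon value, against 1.26%. ACLY had the largest difference of the 10, 0.72 ± 0.15 by the summed value (adjusted p = 0.939), which was 0.14 ± 0.13 by the consensus exon value. ACSS2 followed with 0.66 ± 0.28 (adjusted p = 0.955).

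**Figure D1:**
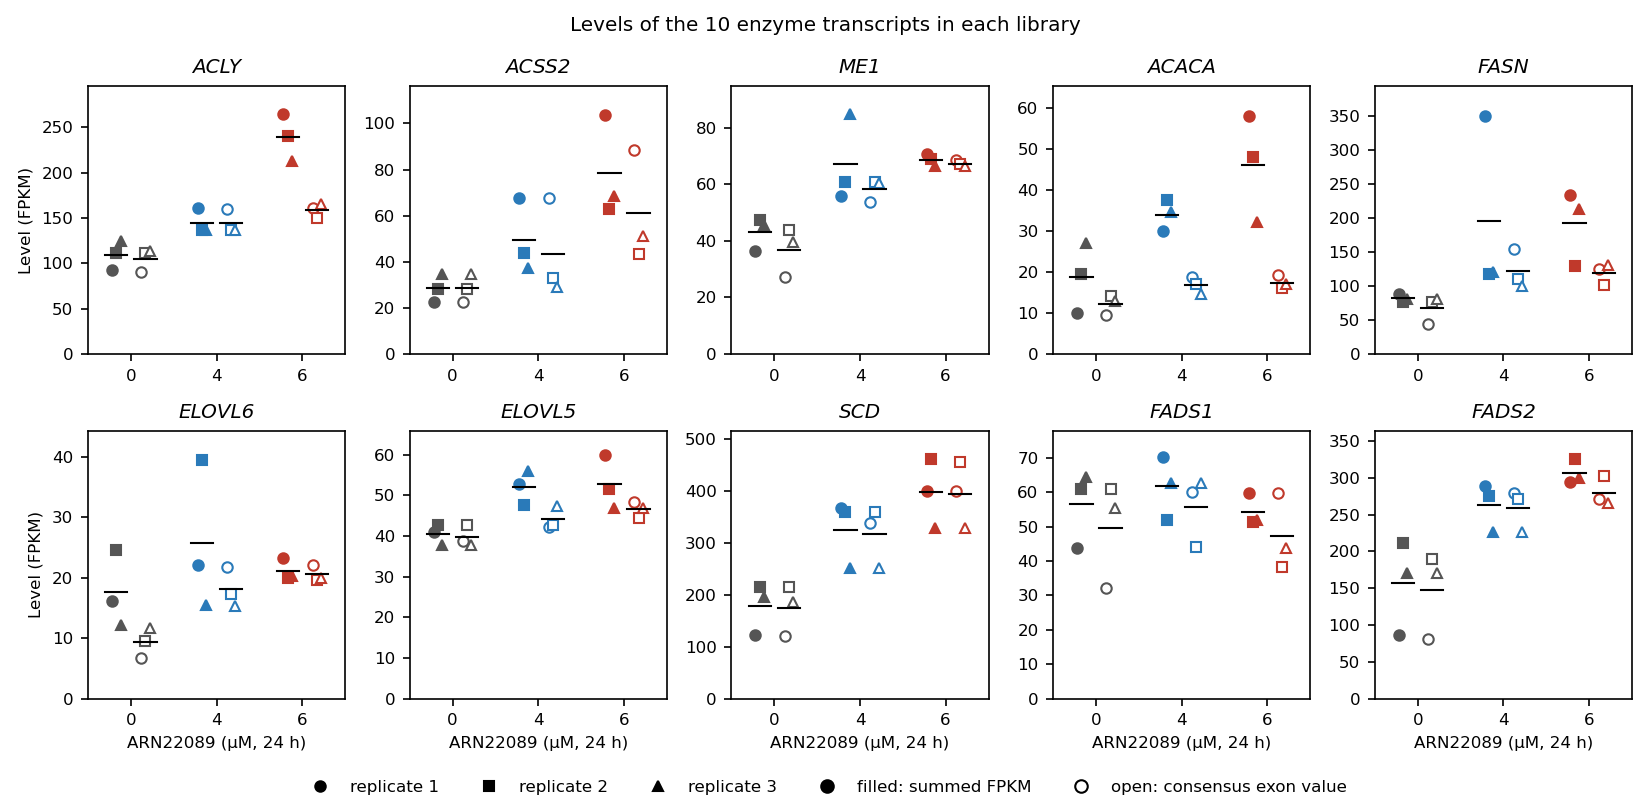
Level in FPKM (vertical axes, starting at 0) of each enzyme in every library at 0, 4 and 6 µM, with the summed FPKM as filled symbols and the consensus exon value as open symbols, and with a bar at each mean (n = 3). ACLY at 6 µM has a mean of 239.7 FPKM summed and 159 FPKM by the consensus exon value.

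**Figure D2:**
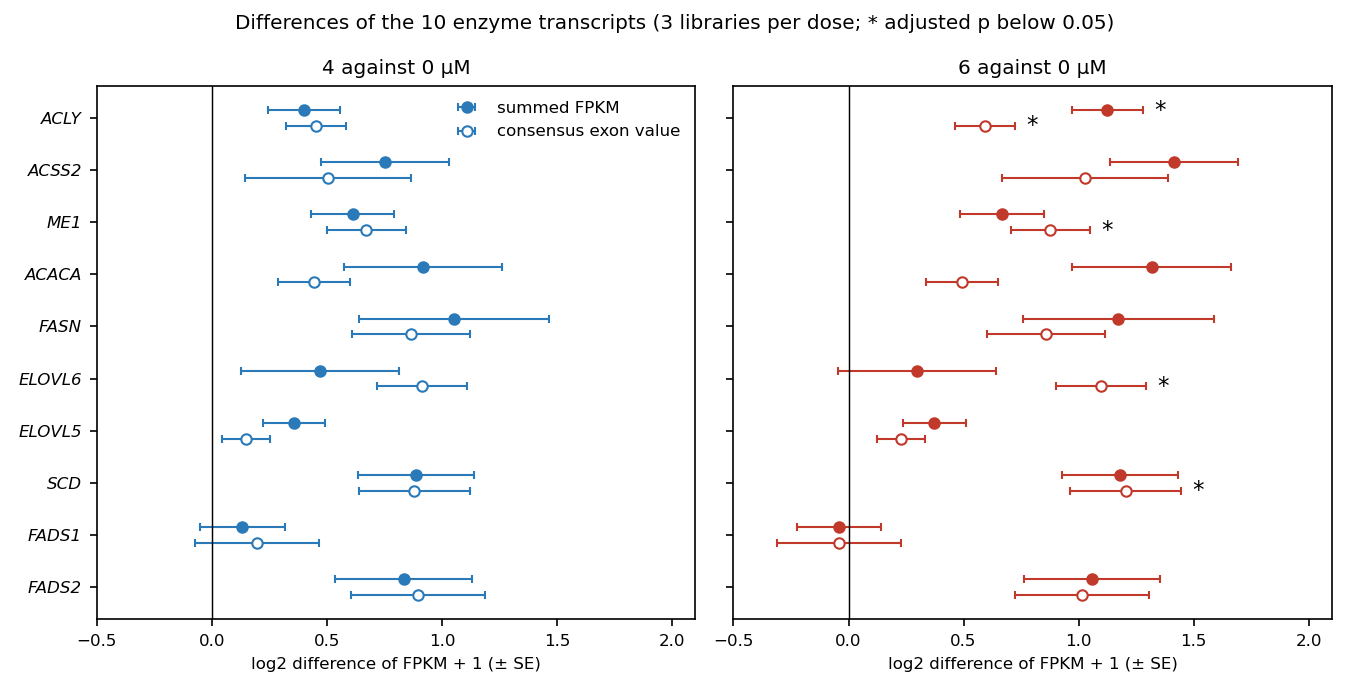
Log2 difference of FPKM + 1 from 0 µM (horizontal axes) for each enzyme, with its SE, at 4 µM on the left and at 6 µM on the right. Stars mark an adjusted p below 0.05 in limma, which was met at 6 µM by ACLY with both values and by ME1, ELOVL6 and SCD with the consensus exon value.

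Of the genes that supply acetyl-CoA and NADPH, ACLY (chromosome 17, 41866917 to 41930545) had 93.1, 112 and 124 FPKM in the 0 µM libraries, 161, 137 and 137 in the 4 µM libraries, and 265, 241 and 213 in the 6 µM libraries. By this summed value the doses did not overlap, and the libraries at 6 µM lay far above the others. The difference at 6 µM was 1.12 ± 0.15 (adjusted p = 0.0455), a ratio of means of 2.19. By the consensus exon value ACLY was at 161, 149.9 and 165 FPKM at 6 µM and at 90.8, 111 and 114 FPKM at 0 µM, a difference of 0.59 ± 0.13 (adjusted p = 0.0448) and a ratio of 1.51. With the replicate number as a block, ACLY passed by neither value (adjusted p = 0.0654 summed and 0.0588 by the consensus exon value). Each library at 6 µM held 1 short transcript of the 3′ end, of 6 to 10 exons, beside the long ones of up to 29 exons. These short transcripts had 186, 135 and 73.6 FPKM, none was assembled at 4 µM, and 1 of 14 exons with 19.9 FPKM was assembled at 0 µM. Transcripts with at least 75% of the 29 exons summed to 79.1, 105 and 139.6 FPKM at 6 µM and to 93.1, 112 and 104 FPKM at 0 µM. These ranges overlap.

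Annotated forms of ACLY with 29 exons (2 forms) and with 28 exons (2 forms) could be followed. Those of 28 exons were assembled with their full intron chain in all 3 libraries at 4 µM, at 31.4% to 37.3% of the 4 forms together. They were assembled in 2 of 3 libraries at 6 µM, at 41.9% and 29.2%, and in 1 of 3 at 0 µM, at 29.6%. Where they were assembled their share thus lay between 29.2% and 41.9% at all doses, and their absence from a library can be a failed assembly.

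ACSS2 (chromosome 20, 34874989 to 34927959) measured 22.4, 28.3 and 34.7 FPKM with vehicle, then 67.5, 43.7 and 37.5 with 4 µM, and 104, 63.0 and 68.6 with 6 µM. By this summed value each library at 4 or 6 µM lay above every library at 0 µM, while by the consensus exon value 4 µM overlapped 0 µM. The summed ratio of means at 6 µM, 2.75, was the largest of the 10. By the consensus exon value it was 2.14, below SCD and ELOVL6. The summed difference of 1.42 ± 0.28 missed the threshold (adjusted p = 0.0649), as did that by the consensus exon value, 1.03 ± 0.36 (adjusted p = 0.128). The annotated form of 18 exons was assembled with its full intron chain in every library. It stood at 52.8, 41.2 and 68.6 FPKM at 6 µM and at 22.4, 28.3 and 34.7 FPKM at 0 µM, without overlap. Its length was not the same, so these FPKM belong to unlike transcripts. It was 2816 to 3081 bases at 0 µM, but 2134 and 2294 at 4 µM and 2186 and 2097 at 6 µM in replicates 2 and 3.

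ME1 (chromosome 6, 83210402 to 83431051) had 36.4, 47.5 and 45.7 FPKM in the 0 µM libraries, 55.9, 60.8 and 84.9 in the 4 µM libraries, and 70.6, 69.0 and 66.5 in the 6 µM libraries. The libraries at 6 µM were nearly equal, and all lay above 0 µM. By the consensus exon value ME1 rose at 6 µM, to 67.3 ± 1.05 FPKM against 36.9 ± 8.72 at 0 µM (SD, n = 3), a difference of 0.88 ± 0.17 (adjusted p = 0.0351). By the summed value it was 0.67 ± 0.18 (adjusted p = 0.118). The annotated form of 14 exons was assembled with its full intron chain in every library. It stood at 66.5 to 70.6 FPKM at 6 µM and 22.8 to 47.5 FPKM at 0 µM.

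The enzymes that build the chain were assembled in more pieces. ACACA (chromosome 17, 37084992 to 37406836), the rate-limiting carboxylase, measured 9.91, 19.4 and 26.9 FPKM with vehicle, then 29.9, 37.4 and 34.5 with 4 µM, and 58.0, 48.1 and 32.2 with 6 µM. The treated libraries all lay above the vehicle ones, with the widest spread at 6 µM. The difference at 6 µM was 1.32 ± 0.34 by the summed value (adjusted p = 0.111) and 0.49 ± 0.16 by the consensus exon value (adjusted p = 0.1002), so that neither passed. No single transcript held more than 57 exons, and all ACACA transcripts at 4 and 6 µM held fewer than 75% of that number. So did all 4 in replicate 3 at 0 µM, which had the highest vehicle sum. In replicate 2 at 0 µM such a transcript had 11.5 of the 19.4 FPKM, and replicate 1 at 0 µM held none. A transcript of 4 exons in the 5′ part of the locus, at 3.69 to 5.60 FPKM, could not be named and is not in the summed value. This transcript was assembled in 5 of the 6 treated libraries and in 1 of the 3 vehicle libraries. The consensus exon value counts every transcript over the consensus exons, named or not, and so includes this one where it covers them.

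FASN (chromosome 17, 82078338 to 82098236), the fatty acid synthase, had 88.9, 76.1 and 81.4 FPKM in the 0 µM libraries, 349.7, 118 and 121 in the 4 µM libraries, and 233, 129 and 214 in the 6 µM libraries. Every treated library lay above every vehicle library, and replicate 1 at 4 µM stood far above the rest. There a short transcript of 6 exons at the 3′ end had 214 FPKM. The consensus exon value was 126, 102 and 131 FPKM at 6 µM and 44.6, 76.1 and 81.4 FPKM at 0 µM. At 6 µM the difference was 1.17 ± 0.41 summed (adjusted p = 0.202) and 0.86 ± 0.26 by the consensus exon value (adjusted p = 0.0870).

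ELOVL6 (chromosome 4, 110045846 to 110199202), the elongase of saturated chains, differed between its 2 values. Its summed level was 16.1, 24.5 and 12.2 FPKM with vehicle, then 22.1, 39.4 and 15.5 with 4 µM, and 23.2, 19.9 and 20.2 with 6 µM, and these doses overlap. By the consensus exon value it was 6.63, 9.52 and 11.7 FPKM with vehicle, then 21.7, 17.3 and 15.3 with 4 µM, and 22.0, 19.6 and 20.0 with 6 µM. Here all treated libraries lay above all vehicle libraries. The difference at 6 µM was 1.10 ± 0.20 by the consensus exon value (adjusted p = 0.0307), the lowest adjusted p of the 10, and 0.30 ± 0.34 by the summed value (adjusted p = 0.682). Replicates 1 and 2 at 0 µM were listed at 0 over the 3′ part of the gene, which lowers the consensus exon value and leaves the sum as it is. Over the 5′ part ELOVL6 stood at 19.6, 19.1 and 19.6 FPKM at 6 µM and at 14.1, 21.0 and 10.7 FPKM at 0 µM, with overlap.

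ELOVL5 (chromosome 6, 53267404 to 53348950), the elongase of polyunsaturated chains, measured 40.9, 42.6 and 37.7 FPKM with vehicle, then 52.6, 47.7 and 56.0 with 4 µM, and 59.9, 51.5 and 46.8 with 6 µM. By this summed value the treated libraries lay above the vehicle ones by a small margin, while by the consensus exon value 4 µM overlapped 0 µM. Over the 5′ part the difference was negative, -0.40 ± 0.26 at 4 µM (adjusted p = 0.521) and -0.28 ± 0.26 at 6 µM (adjusted p = 0.516). The difference at 6 µM was 0.37 ± 0.14 by the summed value (adjusted p = 0.216) and 0.23 ± 0.10 by the consensus exon value (adjusted p = 0.211).

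SCD (chromosome 10, 100347233 to 100364826), the stearoyl-CoA desaturase, had the highest mean FPKM of the 10 at every dose. It had 123, 214 and 196 FPKM in the 0 µM libraries, 366, 359 and 251 in the 4 µM libraries, and 401, 461 and 329 in the 6 µM libraries. All treated libraries lay above all vehicle libraries. SCD rose at 6 µM by the consensus exon value, with a difference of 1.20 ± 0.24 (adjusted p = 0.0367) and a ratio of means of 2.27. By the summed value the difference was nearly the same, 1.18 ± 0.25, but its adjusted p was 0.0746. The annotated transcript of 6 exons was assembled with its full intron chain in all 9 libraries. It stood at 401, 461 and 329 FPKM at 6 µM and at 123, 214 and 146 FPKM at 0 µM.

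The desaturases FADS1 and FADS2 lie side by side on chromosome 11. FADS1 (61799627 to 61817003, minus strand), the Δ5 desaturase, measured 43.9, 61.0 and 64.5 FPKM with vehicle, then 70.2, 52.0 and 62.8 with 4 µM, and 59.7, 51.3 and 51.8 with 6 µM, and all doses overlap. Its difference at 6 µM was -0.04 ± 0.18 (adjusted p = 0.935), the only negative one of the 10, and it was 0.012 with median scaling and 0.26 with TPM. FADS2 (61816203 to 61867354, plus strand), the Δ6 desaturase, had 86.6, 212 and 171 FPKM in the 0 µM libraries, 289, 276 and 226 in the 4 µM libraries, and 294, 325 and 299.7 in the 6 µM libraries. All treated FADS2 libraries lay above all vehicle ones, with replicate 1 at 0 µM far below the rest. The FADS2 difference at 6 µM was 1.06 ± 0.30 (adjusted p = 0.127), and 1.01 ± 0.29 by the consensus exon value (adjusted p = 0.0800).

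Within each library, FADS2 stood at 1.97, 3.48 and 2.65 times the FADS1 level at 0 µM, 4.11, 5.30 and 3.60 times at 4 µM, and 4.93, 6.34 and 5.79 times at 6 µM. The ratio averaged 5.68 ± 0.711 at 6 µM and 2.70 ± 0.752 at 0 µM (SD, n = 3). Neither treated dose overlapped the vehicle, and the exact permutation test on the ratio gave p = 0.10 (2-sided) for each dose, the smallest p that 3 against 3 libraries allow. The annotated spans of the 2 genes share 801 bases on opposite strands, but the assembled transcripts did not meet. FADS1 transcripts began at 61816993 to 61817365 and those of FADS2 at 61828012 to 61828198, at least 10647 bases apart. Both annotated forms of 12 exons were assembled with their full intron chain in every library, but at unlike lengths. That of FADS2 had 1576 to 1689 bases at 0 µM, 1638 to 3567 at 4 µM and 1715 to 3211 at 6 µM. That of FADS1 had 3498 to 4619, 3683 to 4421 and 3645 to 4481 bases. The part that length has in the ratio was not tested. FADS3, the next gene of the cluster, was at 17.9, 16.2 and 14.2 FPKM at 6 µM and at 22.2, 15.6 and 15.2 FPKM at 0 µM, which overlap.

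**Figure D3:**
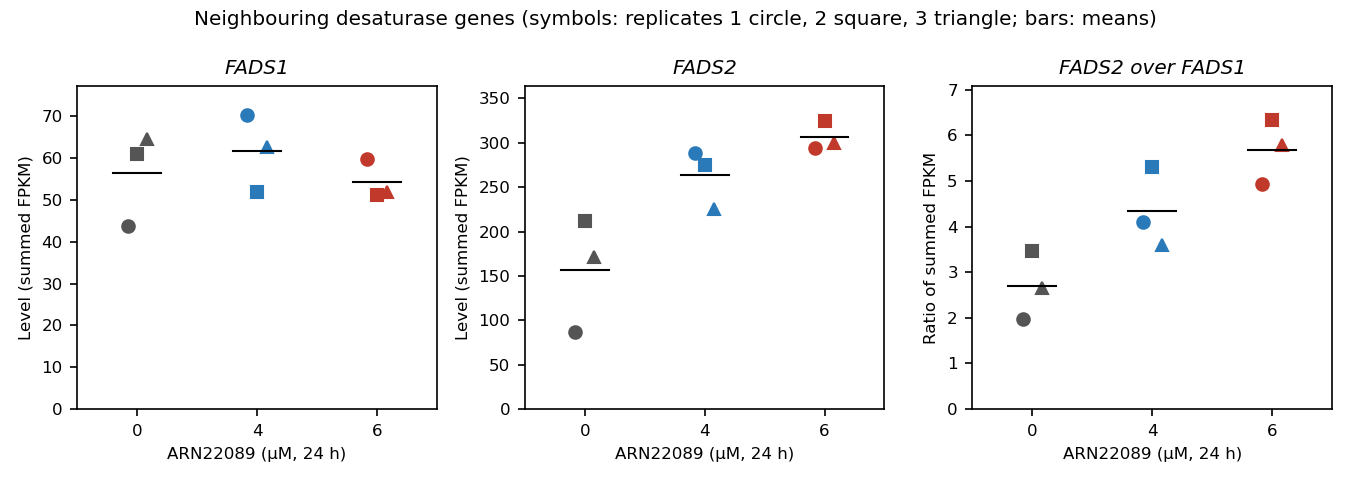
Summed FPKM of FADS1 and FADS2 and their ratio (vertical axes, starting at 0) in every library at 0, 4 and 6 µM, with a bar at each mean (n = 3). FADS1 overlaps between doses, while the ratio is at least 3.60 in every treated library and at most 3.48 in the vehicle libraries.

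The level along the transcripts differed between the doses. Each gene with at least 1500 consensus exonic bases was split into 3 equal parts from 5′ to 3′. The log2 ratio of the 3′ to the 5′ part exceeded 1 in 4.78%, 3.31% and 4.02% of 9636 genes at 0 µM, in 7.17%, 8.86% and 6.42% at 4 µM, and in 13.8%, 13.2% and 7.54% at 6 µM. Every library at 4 or 6 µM lay above every library at 0 µM. Among the enzymes, the median difference at 6 µM was 0.41 over the 5′ part, 0.86 over the middle part and 1.12 over the 3′ part, where all genes had medians of -0.20, -0.07 and 0.01. The part that this shift has in the results was not tested.

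Over its 5′ part ACLY was at 79.1, 95.1 and 139 FPKM at 6 µM and at 86.6, 111 and 97.7 FPKM at 0 µM, a difference of 0.05 ± 0.21. Over its 3′ part it was at 249.6, 241 and 213 FPKM at 6 µM and at 93.1, 112 and 124 FPKM at 0 µM, a difference of 1.10 ± 0.14 (adjusted p = 0.0370). At 6 µM ACLY thus passed the test over its 3′ part and not over its 5′ part. At 4 µM its difference was 0.55 ± 0.21 over the 5′ part and 0.40 ± 0.14 over the 3′ part.
ACACA had differences of opposite sign at its ends. Over the 5′ part it had 3.54 and 4.54 FPKM at 6 µM in replicates 1 and 3 and was listed at 0 in replicate 2. At 0 µM it had 9.04, 7.30 and 6.33 FPKM there. Over the 3′ part it had 47.5, 38.7 and 27.5 FPKM at 6 µM and 9.91, 19.4 and 19.6 FPKM at 0 µM. The groups did not overlap at either end, and neither difference passed the test (-1.53 ± 0.54, adjusted p = 0.115, and 1.19 ± 0.30, adjusted p = 0.112).
SCD had nearly equal differences along its length, 1.25 ± 0.23 over the 5′ part (adjusted p = 0.0290) and 1.18 ± 0.25 over the 3′ part (adjusted p = 0.0818). FADS2, with 0.83 ± 0.32 over the 5′ part, and ME1, with 0.63 ± 0.16, were also higher there without passing the test (adjusted p = 0.138 and 0.0521). ACSS2 had 0.99 ± 0.25 over its 5′ part (adjusted p = 0.0535) and 1.42 ± 0.27 over its middle part (adjusted p = 0.0376), and 0.27 ± 0.83 over its 3′ part. FASN had 0.45 ± 0.41 over its 5′ part (adjusted p = 0.4998), where 6 µM overlapped 0 µM. Over its 3′ part it had 1.11 ± 0.30 (adjusted p = 0.123).

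**Figure D4:**
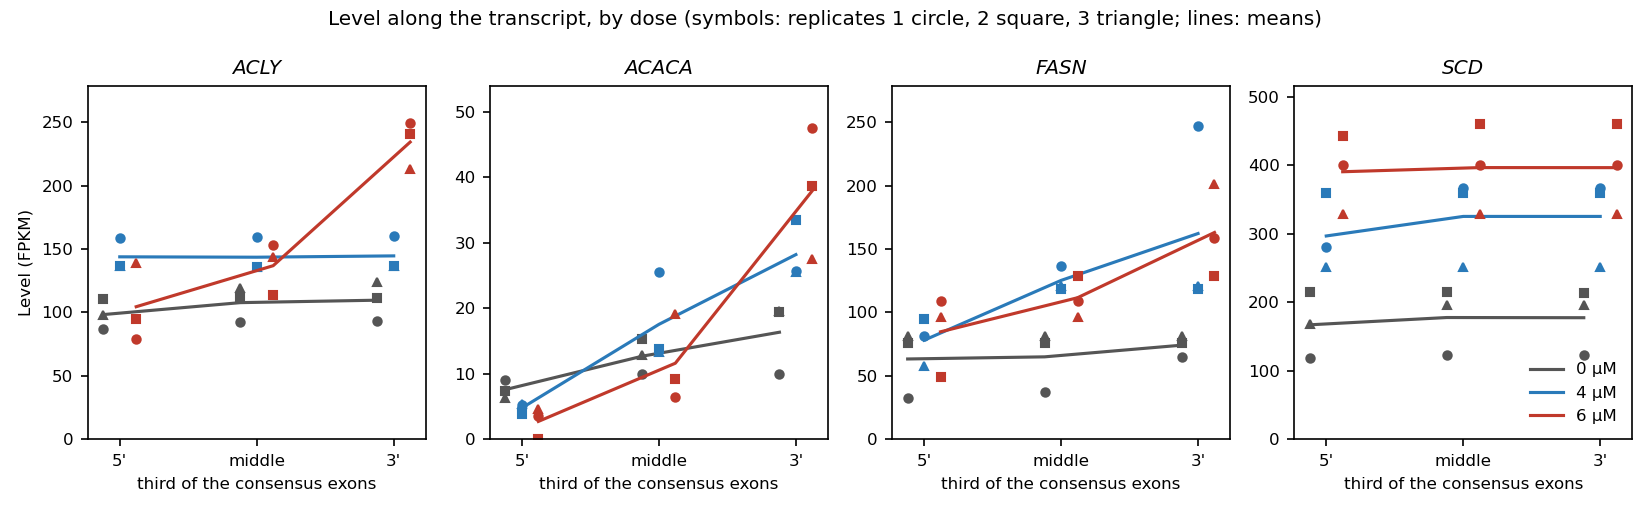
Level in FPKM (vertical axes, starting at 0) of ACLY, ACACA, FASN and SCD over the 5′, middle and 3′ part of their consensus exons, with a symbol for each library and a line through the means at each dose. SCD is nearly flat at each dose, while ACLY at 6 µM spans 79.1 to 139 FPKM in the 5′ part and 213 to 249.6 FPKM in the 3′ part.

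Among the regulators, SREBF1, the gene of the SREBP-1 factor that drives fatty acid synthesis genes, measured 19.9, 35.02 and 31.9 FPKM with vehicle, then 46.7, 45.4 and 44.5 with 4 µM, and 53.3, 59.7 and 37.8 with 6 µM. All treated libraries lay above all vehicle libraries by this summed value, and the difference at 6 µM was 0.79 ± 0.24 (adjusted p = 0.151). By the consensus exon value the 4 µM libraries overlapped the vehicle ones, and the SREBF1 difference at 6 µM was 0.54 ± 0.22 (adjusted p = 0.165). Over the 5′ part it was 0.25 ± 0.26 (adjusted p = 0.543). SREBF2, which favours sterol genes, was at 64.4 ± 12.7 FPKM at 6 µM and 61.7 ± 8.10 FPKM at 0 µM (SD, n = 3), a difference of 0.05 ± 0.18. INSIG1, which holds SREBPs in the endoplasmic reticulum and is itself an SREBP target, had 14.1, 24.9 and 24.7 FPKM in the 0 µM libraries, 47.7, 44.7 and 42.2 in the 4 µM libraries, and 37.7, 47.0 and 59.5 in the 6 µM libraries. INSIG1 rose at 6 µM by the consensus exon value, by 1.67 ± 0.32 (adjusted p = 0.0351), and its difference by the summed value was 1.16 ± 0.24 (adjusted p = 0.0719). Replicate 3 at 0 µM was listed at 0 over the 3′ part of INSIG1, which lowers its consensus exon value there to 8.31 FPKM. Over the 5′ part, assembled in every library, the difference was 1.17 ± 0.24 (adjusted p = 0.0323).

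Other fatty acid genes were described by lists, each beside a median of all genes of -0.03 (summed) and -0.05 (consensus exon value) at 6 µM. Medians, counts and levels of these lists are by the summed value unless stated. By it no gene of the 6 lists passed the test at 6 µM, where 8.07% of all genes were higher and 9.72% lower at an unadjusted p below 0.05. The 17 tested genes of fatty acid oxidation had a median difference of -0.04 at 6 µM, with 0 higher and 1 lower at that p. ACADVL, which starts the oxidation of long chains, was at 157 ± 41.9 FPKM at 6 µM and 162 ± 21.1 FPKM at 0 µM. HADHA, a subunit of the trifunctional protein, was at 77.7 ± 4.97 FPKM at 6 µM and 62.8 ± 9.81 FPKM at 0 µM (SD, n = 3 each).

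The 15 partners of elongation and desaturation had a median of -0.01, with 2 higher and 1 lower at that p. The 17 genes of glycerolipid synthesis had one of 0.13, with 3 higher and 1 lower. TECR, the last reductase of the elongation cycle, was at 213 ± 15.8 FPKM at 6 µM and 174 ± 7.16 FPKM at 0 µM. CYB5R3, a reductase that feeds electrons to the desaturases through cytochrome b5, was at 164 ± 4.74 FPKM at 6 µM and 136 ± 7.95 FPKM at 0 µM. By the consensus exon value TECR was at 193 ± 8.23 against 163 ± 4.49 FPKM, and CYB5R3 at 145 ± 34.1 against 135 ± 8.34 FPKM. AGPAT1, an acyltransferase of phosphatidic acid synthesis, was at 84.0 ± 2.29 FPKM at 6 µM and 90.4 ± 7.99 FPKM at 0 µM (SD, n = 3 each). None of these passed the test.

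The 8 tested genes of acetyl-CoA and NADPH supply had a median of 0.29, with 2 higher and 0 lower. The 11 of fatty acid activation and transfer had one of 0.52, with 3 higher and 0 lower. By the consensus exon value the medians of these 2 lists were 0.27, with 2 higher and 1 lower, and 0.24, with 3 higher and 1 lower. MDH1, the cytosolic malate dehydrogenase, was at 189.9 ± 18.8 FPKM at 6 µM and 159 ± 4.12 FPKM at 0 µM (SD, n = 3 each). DBI, the acyl-CoA binding protein, was at 739 ± 62.8 FPKM at 6 µM and 500.4 ± 63.7 FPKM at 0 µM, with a difference of 0.57 ± 0.19 (adjusted p = 0.182). ACSL3, an acyl-CoA synthetase of lipid droplets, was at 213 ± 68.4 FPKM at 6 µM and 147 ± 36.97 FPKM at 0 µM (SD, n = 3 each). The 19 regulators had a median of 0.03, with 4 higher and 2 lower. MLX, the partner of the sugar-sensing factor ChREBP, was at 84.8 ± 20.2 FPKM at 6 µM and 97.6 ± 11.9 FPKM at 0 µM (SD, n = 3 each).

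By the consensus exon value 5 of the 86 tested genes of these lists (5.81%) passed at 6 µM, a share near the 4.28% of all genes, and they are named after their values were seen. Besides INSIG1, they were ACSL1, an acyl-CoA synthetase, with 0.79 ± 0.16 (adjusted p = 0.0377), FABP7, a brain-type fatty acid binding protein, with 2.04 ± 0.47 (adjusted p = 0.0484), and HACD1, a dehydratase of the elongation cycle, with 0.97 ± 0.21 (adjusted p = 0.0444, or 0.0627 in the fit with the replicate block). PRKAA1, a catalytic subunit of AMPK, which phosphorylates and inhibits acetyl-CoA carboxylase, fell by 0.77 ± 0.16 (adjusted p = 0.0377). Its summed level was 6.76 ± 0.990 FPKM at 6 µM and 11.5 ± 1.499 FPKM at 0 µM (SD, n = 3 each).

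**Figure D5:**
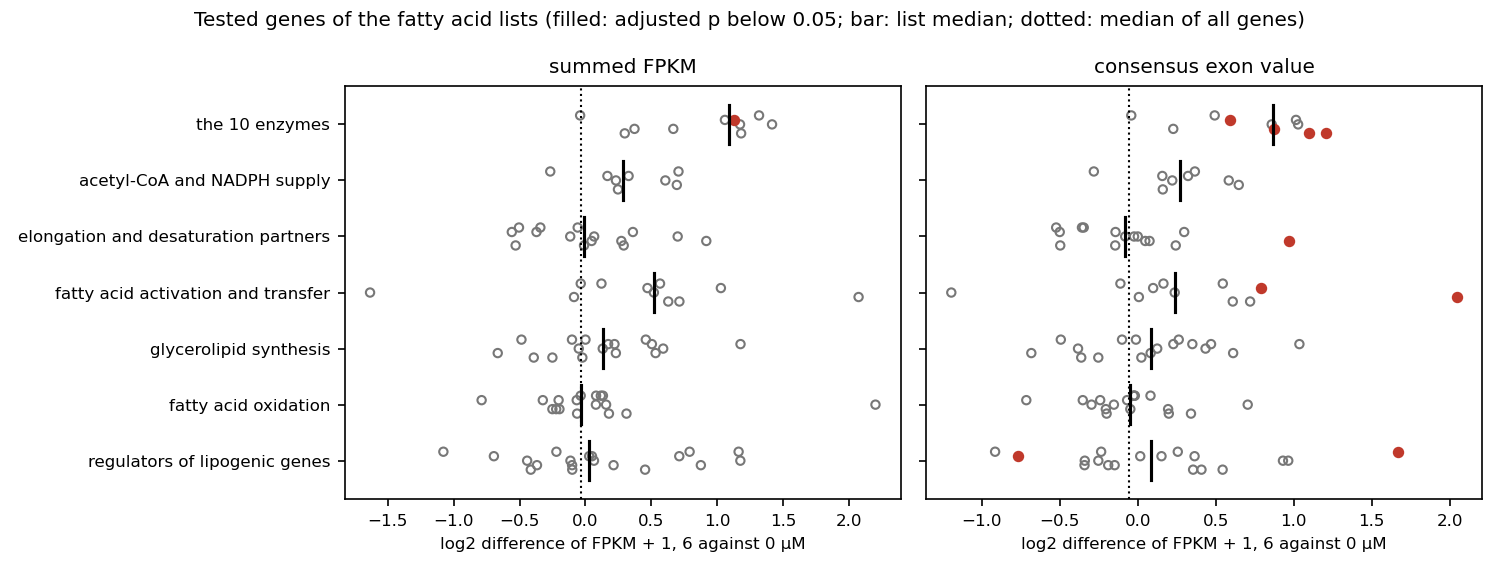
Log2 difference of FPKM + 1 at 6 µM against 0 µM (horizontal axes) for each tested gene of the 10 enzymes and of 6 further lists, by summed FPKM on the left and consensus exon value on the right. The bar of the 10 enzymes, at 1.09 and 0.87, lies to the right of the dotted median of all genes, at -0.03 and -0.05, while that of fatty acid oxidation lies at -0.04 and -0.05.

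Across the 9 libraries, Pearson correlations of each enzyme with the mean of the other 9, on standardized log2(FPKM + 1), were 0.696 or more for 8 of them, highest in SCD at 0.94 and in FADS2 at 0.92. They were 0.27 for FADS1 and 0.32 for ELOVL6. Among the genes outside the list whose profile was most like the mean of the 10, out of 10627 compared, were SLC25A23, a mitochondrial carrier, at 0.99, KAZN at 0.99, GCNT2 at 0.98 and NSDHL, an enzyme of cholesterol synthesis, at 0.98. The 9 libraries share their doses and replicate numbers, so these values are descriptions. SLC25A23 was at 29.8 ± 4.05 FPKM at 6 µM and 15.7 ± 2.32 FPKM at 0 µM, and NSDHL at 66.8 ± 6.61 FPKM at 6 µM and 42.5 ± 6.71 FPKM at 0 µM (SD, n = 3 each).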

How the data were processed

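Poly-A RNA of 9 libraries was analysed from 1 deposited assembly per library. Cufflinks 2.2.1, TopHat2 2.1, Bowtie2 2.2.7, Trimmomatic, SAMtools 1.9 and R 4.0.3 were used, per the submitters' processing notes. The notes name GRCh37, but coordinates in the files are GRCh38 (732 transcripts lie on scaffolds found only there). The authors' deposited values are FPKM per assembled transcript, one of several other quantities in a text column, with no gene names.

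Transcripts took the name of the same-strand RefSeq gene (GRCh38) with which they shared the most intron lengths (GENCODE). Of 193769 spliced transcripts 185695 (95.8%) were named. Of the RefSeq genes, 39308 matched GENCODE by symbol, 372 by an older symbol and 20112 not at all, and the last were not named. No source used here says whether strand was kept, so antisense and overlapping genes are uncertain. A single-exon transcript counted only with at least 50% of its length in a gene not assembled with introns. Genes whose mean reached 1 FPKM entered 1 limma 3.58.1 fit (R 4.3.3) of log2(FPKM + 1) over all 9 libraries with a variance trend and 6 residual degrees of freedom. The scale understates changes of low genes. The fit was tested on simulated data, and the tables were made in Python 3.11.15. A gene at 0 can be a failed assembly: 399 to 569 tested genes were at 0 in a library. The sum of FPKM was 587999 to 689699 in 8 libraries and 1061112 in replicate 3 at 0 µM, so fixed-sum TPM was an alternative.

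Named were the 10 enzymes, from each further list the genes that passed limma at 4 or 6 µM by the summed value and the 2 with the highest mean, SREBF1, SREBF2 and INSIG1, the 5 genes most correlated with the 10, and markers; 2 genes that this rule names are not reported here. Same-numbered libraries share a mark of unstated meaning in the labels. Their deviations from the dose means correlated at 0.104 to 0.135 between 6 and 4 µM (3 pairs; different numbers -0.090 to -0.021), at 0.037 to 0.052 between 6 and 0 µM, and at -0.015 to 0.0025 between 4 and 0 µM. A replicate block was therefore an alternative throughout. The members, lists and rules were chosen with earlier results of these data known. The 3 parts of each gene, and the cut at 75% of exons, were added after the data were seen.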

Additional observations from a re-analysis of the deposited data

How the results depend on the processing

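Of 100 differences of the 10 enzymes recomputed at 4 µM against 0 µM, over the 10 planned settings, 100 kept their sign and stayed short of the threshold; at 6 µM 91 of 100 kept sign and side, 2 changed sign, 4 lost the call and 3 gained it. The number of genes called at 6 µM was 524 with the consensus exon value, 77 with a mean of at least 5 FPKM, 15 each with TPM, with only the 2 doses compared and with a constant variance prior, and 4 with the replicate block. Enzymes called at 6 µM were 4 with the consensus exon value and 0 with TPM, the 2 doses alone, the constant prior or the replicate block (ACLY adjusted p = 0.0654). With the block 2 genes were called at 4 against 0 µM, 1 at 6 against 4 µM, and 0 there by the consensus exon value. By that value the block gave 698 genes and 3 enzymes at 6 µM, without ACLY (adjusted p = 0.0588). At 6 against 4 µM 5 genes were called with no filter and 5 with the constant prior. TPM moved the median of all genes by 0.32 at 4 µM and 0.27 at 6 µM. Leaving out 1 library at a time, genes called numbered 9 to 25 at 4 µM, 16 to 74 at 6 µM and 2 to 14 at 6 against 4 µM, and by the consensus exon value 5 to 20, 10 to 555 and 0 to 9. Enzymes called at 6 µM numbered 0 to 1, and 0 to 3 by the consensus exon value. The median of the enzymes at 6 against 4 µM ran from 0.12 to 0.30. Signs turned in FASN at 6 against 4 µM (-0.15 to 0.63), ELOVL5 (-0.080 to 0.094), ELOVL6 (-0.47 to 0.18) and ME1 (-0.064 to 0.23), in FADS1 at 4 µM (-0.035 to 0.25) and 6 µM (-0.21 to 0.064), and in SREBF2 at 4 µM (-0.061 to 0.13) and 6 µM (-0.077 to 0.21). Over the 5′ part the median of the enzymes was 0.41 at 6 µM and -0.021 at 6 against 4 µM, where it was 0.31 over the 3′ part. Signs turned over the 5′ part in ACLY (-0.49), ACACA (-0.96) and FADS2 (-0.17) at 6 against 4 µM, in ACACA (-0.57) and ELOVL5 (-0.40) at 4 µM, and in ACACA (-1.53), ELOVL5 (-0.28) and FADS1 (0.24) at 6 µM. Over the middle part they turned in ACACA at 6 µM (-0.23) and, at 6 against 4 µM, in ACLY (-0.076), ACACA (-0.62), FASN (-0.17) and ELOVL6 (0.27). Over the 3′ part they turned in ELOVL6 at 6 against 4 µM (0.89), ACSS2 at 4 µM (-0.37) and SREBF2 at 6 µM (-0.49). FADS1 at 6 µM was 0.26 with TPM and 0.012 with median scaling, ELOVL5 at 6 against 4 µM was -0.038 with TPM, and by the consensus exon value FASN was -0.0071 and ELOVL6 0.18 at 6 against 4 µM. The cause of these changes was not tested. The settings by part of the gene, the consensus exon value with the block and its leave-one-out fits were chosen after seeing the data.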
